A study of Homo sapiens with 18 samples.

Results

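Whether the response to ETV6 R369W depends on the genotype of the receiving cell was asked as a single number per gene: the log2 difference between R369W and empty vector (EV) in ETV6 knockout cells, minus the same difference in unedited cells. This interaction is below 0 when R369W stands lower, relative to EV, in knockout cells than in unedited cells. It is the same number when read as the knockout-minus-unedited difference with R369W minus that with EV. It was measured in 12 of the 18 libraries of the series, 3 in each of 4 groups, and tested in 12262 of 20833 gene identifiers that passed a filter on low counts. The cells were MEG-01 (Meg01 in the labels), a human megakaryoblastic leukaemia line. Unedited cells (genotype label WT) and cells labelled as an ETV6 knockout each carried a lentiviral EV or a lentivirus encoding ETV6 R369W, and messenger RNA was taken on day 3. The other 6 libraries carried a wild-type ETV6 lentivirus in the same 2 genotypes. The sources used here do not give the promoter of the lentivirus, the edit made in the knockout cells or what the replicate numbers (2, 3 and 4 in unedited cells, 1, 2 and 4 in knockout cells) stand for. Biological replicates, 3 per condition, are stated, but not whether they are clones, so p-values measure the spread between these libraries.

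ETV6 belongs to the ETS family of transcription factors, whose shared domain binds DNA at a GGAA core. It acts mainly as a repressor, forms polymers through its N-terminal domain and is needed for normal platelet formation. R369W changes an arginine of the DNA-binding domain, and germline variants of that domain are known from inherited low platelet counts with a risk of leukaemia. Such variants can also bind the normal protein and interfere with it, which needs a normal ETV6 gene in the same cell.

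Gene reads ran from 12577816 to 16041684 in 11 of the 12 libraries, and knockout EV replicate 1 held 18927506. Levels are given in CPM, gene reads scaled to library size, and 3 reads in a library correspond to 0.156 to 0.246 CPM. The share of unaligned reads was higher in every EV library (0.527% to 0.809%) than in any R369W library (0.279% to 0.337%), in both genotypes, and its part in the results was not tested. In unedited cells, EV and R369W libraries of the same number deviated from their group means together (r = 0.751 to 0.856 across genes, which are not independent). In knockout cells the same-numbered ones did not (r = -0.581 to -0.160), and each R369W library went best with an EV library of another number. EV replicate 1 went with R369W replicate 4 (r = 0.756), EV replicate 2 with R369W replicate 1 (0.872) and EV replicate 4 with R369W replicate 2 (0.787). Why these numbers differ was not tested. The interaction had been set without a replicate block, so the numbers entered none of the main tests. Neither the pairing by number in unedited cells nor the one across numbers in knockout cells was thus used there. Of the megakaryocyte markers reported here, ITGA2B (859 to 1662 CPM), GATA1 (120.0 to 242 CPM), TAL1 (583 to 729 CPM), NFE2 (171 to 254 CPM) and ITGB3 (13.9 to 125 CPM) were present throughout. GP9 (0 to 3.68 CPM) was at or near 0, and PF4 had no read in any of the 12 libraries. None of those tested had a called interaction. In bulk RNA, fewer cells expressing a gene and less RNA per cell cannot be told apart.

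The interaction was called in 5 genes at an adjusted p under 0.05 (edgeR's quasi-likelihood test, Benjamini-Hochberg over all genes tested), 0.0408% of those tested. All 5 were below 0: FCHSD2, ZDHHC3, EZH2, CLIC5 and MYT1. FCHSD2 is an F-BAR protein of actin and membrane traffic, ZDHHC3 a palmitoyltransferase of the Golgi, and EZH2 the methyltransferase subunit of Polycomb repressive complex 2. CLIC5 is a chloride intracellular channel protein tied to the actin cortex, and MYT1 a zinc finger transcription factor known from the nervous system. At an unadjusted p under 0.05 the split was even, with 255 genes below 0 (2.08%) and 265 above (2.16%). Together these were 4.24% of the genes tested (520 in the main fit), no more than a threshold of 0.05 lets through without any interaction. That number depended on the fit: 850 genes without knockout R369W replicate 1, 841 without replicate 4 and 248 without replicate 2. The middle of all genes lay near 0 (median -0.02, quartiles -0.18 and 0.16).

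**Figure D1:**
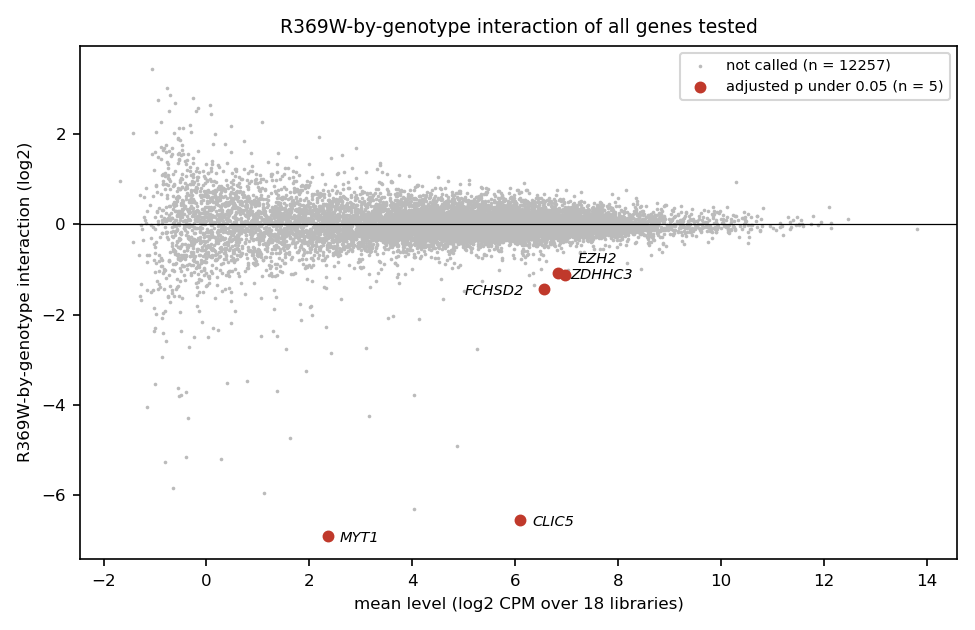
The R369W-by-genotype interaction (vertical axis, log2) of each of the 12262 genes tested against its mean level over 18 libraries (horizontal axis, log2 CPM); grey points were not called and the 5 red points passed an adjusted p under 0.05. All 5 red points lie below 0, and the point of MYT1 is a fitted value that depends on a group with 1 read.

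The starts of 4 of the 5 genes are shown because ETV6 binds through the GGAA core and the genes share a direction. Each window runs from 250 bases before to 50 after a transcription start in RefSeq (GRCh38.p14), 5′ to 3′ on the gene's strand, with every GGAA and its reverse TTCC in capitals. For CLIC5 and EZH2, which have 3 and 2 windows, the one nearest to the gene's start in GENCODE release 29 was taken. All 4 lie on the minus strand, at chr6:46080299-46080598 for CLIC5, chr11:73142269-73142568 for FCHSD2, chr7:148884242-148884541 for EZH2 and chr3:44976125-44976424 for ZDHHC3.
CLIC5: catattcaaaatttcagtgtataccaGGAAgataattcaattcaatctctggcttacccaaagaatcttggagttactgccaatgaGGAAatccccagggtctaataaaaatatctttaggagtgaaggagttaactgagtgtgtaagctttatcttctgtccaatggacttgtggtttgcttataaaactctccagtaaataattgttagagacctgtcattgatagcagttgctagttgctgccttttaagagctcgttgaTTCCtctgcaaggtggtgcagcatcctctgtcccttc
FCHSD2: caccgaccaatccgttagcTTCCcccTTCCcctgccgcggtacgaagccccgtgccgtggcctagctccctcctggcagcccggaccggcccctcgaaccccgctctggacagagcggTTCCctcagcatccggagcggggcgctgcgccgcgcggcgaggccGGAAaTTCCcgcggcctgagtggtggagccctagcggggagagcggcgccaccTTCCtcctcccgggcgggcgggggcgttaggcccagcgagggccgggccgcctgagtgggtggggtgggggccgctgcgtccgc
EZH2: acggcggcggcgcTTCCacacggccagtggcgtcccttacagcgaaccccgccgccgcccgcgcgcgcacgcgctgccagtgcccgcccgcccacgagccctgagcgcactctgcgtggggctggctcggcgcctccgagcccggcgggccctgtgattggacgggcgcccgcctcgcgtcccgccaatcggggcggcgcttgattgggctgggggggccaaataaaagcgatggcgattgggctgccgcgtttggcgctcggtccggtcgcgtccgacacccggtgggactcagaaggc
ZDHHC3: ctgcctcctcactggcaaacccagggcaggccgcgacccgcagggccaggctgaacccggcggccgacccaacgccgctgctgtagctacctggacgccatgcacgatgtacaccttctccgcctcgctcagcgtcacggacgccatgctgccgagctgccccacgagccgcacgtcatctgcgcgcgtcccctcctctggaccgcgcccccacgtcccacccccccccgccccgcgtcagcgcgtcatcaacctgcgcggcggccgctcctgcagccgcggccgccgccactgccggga
The window of FCHSD2 held 6 cores, that of CLIC5 held 3 and that of EZH2 held 1. Those of ZDHHC3 and MYT1 held none. A core on either strand was found in 95.5% of the 27305 promoter windows (1 per gene), and in 95.3% of the 10006 that belong to tested genes. The longer motif CCGGAAGT, which contains the core, was found on either strand in 4.40% of all windows, 8.91% of those of tested genes and in none of the 5. These are matches of letters in a window and say nothing on binding.

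FCHSD2, ZDHHC3 and EZH2 had 1 pattern of levels in common, with knockout EV cells highest. In CPM, the other 3 groups stood nearer each other than to knockout EV cells. For FCHSD2 and ZDHHC3, every knockout R369W library still lay above every unedited EV and R369W library. FCHSD2 (ENSG00000137478; GRCh38 chromosome 11, 72836745 to 73142261, minus strand) measured 48.3, 55.1 and 39.6 CPM in unedited EV replicates 2, 3 and 4, and 53.7, 57.8 and 51.3 CPM in unedited R369W. In knockout cells it measured 287, 193 and 277 CPM with EV (replicates 1, 2 and 4) and 106, 105 and 108 CPM with R369W. The unedited groups overlapped and the knockout groups did not, with every R369W library below the lowest EV library. The interaction was -1.43 on the log2 scale (SE 0.19, 95% interval -1.84 to -1.03, edgeR adjusted p = 0.0118), and the R369W-to-EV ratio was 2.70-fold lower in knockout than in unedited cells. Leaving out 1 library at a time, FCHSD2 passed in 9 of 12 fits and was lost without unedited EV replicate 2 (adjusted p = 0.0560), knockout EV replicate 4 (0.0579) or knockout R369W replicate 2 (0.0590).

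ZDHHC3 (ENSG00000163812; chromosome 3, 44915257 to 44976185, minus strand) measured 66.4, 70.1 and 56.0 CPM in unedited EV and 73.1, 84.9 and 69.0 CPM in unedited R369W. Its knockout values were 263, 226 and 252 CPM with EV and 139, 130 and 149 CPM with R369W. Here too the unedited groups overlapped, while the knockout groups lay apart with EV above. The interaction was -1.07 (SE 0.16, interval -1.40 to -0.74, edgeR adjusted p = 0.0171), a 2.10-fold lower ratio in knockout cells. It passed in 5 of 12 fits with 1 library left out (adjusted p 0.0197 to 0.0832). The 7 libraries whose absence ended the call were unedited EV replicates 2 and 4, unedited R369W replicates 2 and 3, knockout EV replicates 1 and 4, and knockout R369W replicate 2.

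EZH2 (ENSG00000106462; chromosome 7, 148807383 to 148884321, minus strand) measured 103, 83.2 and 107 CPM in unedited EV and 111, 94.9 and 111 CPM in unedited R369W. In knockout cells it stood at 233, 237 and 244 CPM with EV, and at 132, 121 and 102 CPM with R369W. The 3 knockout EV libraries were the highest of the 12 and close to each other, and the knockout R369W range ran into that of unedited R369W. The interaction was -1.12 (SE 0.18, interval -1.50 to -0.74, edgeR adjusted p = 0.0364), a 2.18-fold lower ratio. This was the least stable of the calls: it held in 1 of 12 fits with a library left out, the one without knockout R369W replicate 1 (adjusted p = 0.0492), and reached 0.135 in the others.

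CLIC5 and MYT1 followed another pattern, near 0 in unedited EV cells and higher in the unedited R369W cells, with knockout cells high under both vectors. CLIC5 (ENSG00000112782; chromosome 6, 45880827 to 46080348, minus strand) measured 0.529, 0.152 and 0.0615 CPM in unedited EV, 10 reads in all, and 19.4, 26.4 and 3.80 CPM in unedited R369W. Its knockout values were 231, 196 and 250 CPM with EV and 165, 180 and 147 CPM with R369W. Neither pair of groups overlapped, and the pairs lay in opposite orders: R369W above EV in unedited cells and below it in knockout cells. The interaction was -6.54 (SE 0.88, interval -8.44 to -4.64, edgeR adjusted p = 0.0171), and it rests on a ratio to 10 reads, which leaves its size loose. On the linear scale the difference of differences was -78.0 CPM, the same sign. CLIC5 passed in 4 of 12 fits with 1 library left out. It was lost without any 1 of the unedited EV libraries, unedited R369W replicate 2, knockout EV replicate 1 or 4, or knockout R369W replicate 2 or 4 (adjusted p up to 0.0996).

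MYT1 (ENSG00000196132; chromosome 20, 64102394 to 64242253, plus strand) had 1 read over the 3 unedited EV libraries and 149 over unedited R369W, or 3.12, 6.02 and 2.72 CPM. In knockout cells it measured 15.8, 12.6 and 9.42 CPM with EV (591 reads) and 12.6, 12.3 and 13.7 CPM with R369W (507 reads). The unedited groups lay apart and the knockout groups overlapped. Its adjusted p was 0.0108 in edgeR, the smallest of all genes, and no size is given because 1 group held 1 read. The call was lost without knockout R369W replicate 2 (adjusted p = 0.0590) and held in the other 11 fits.

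**Figure D2:**
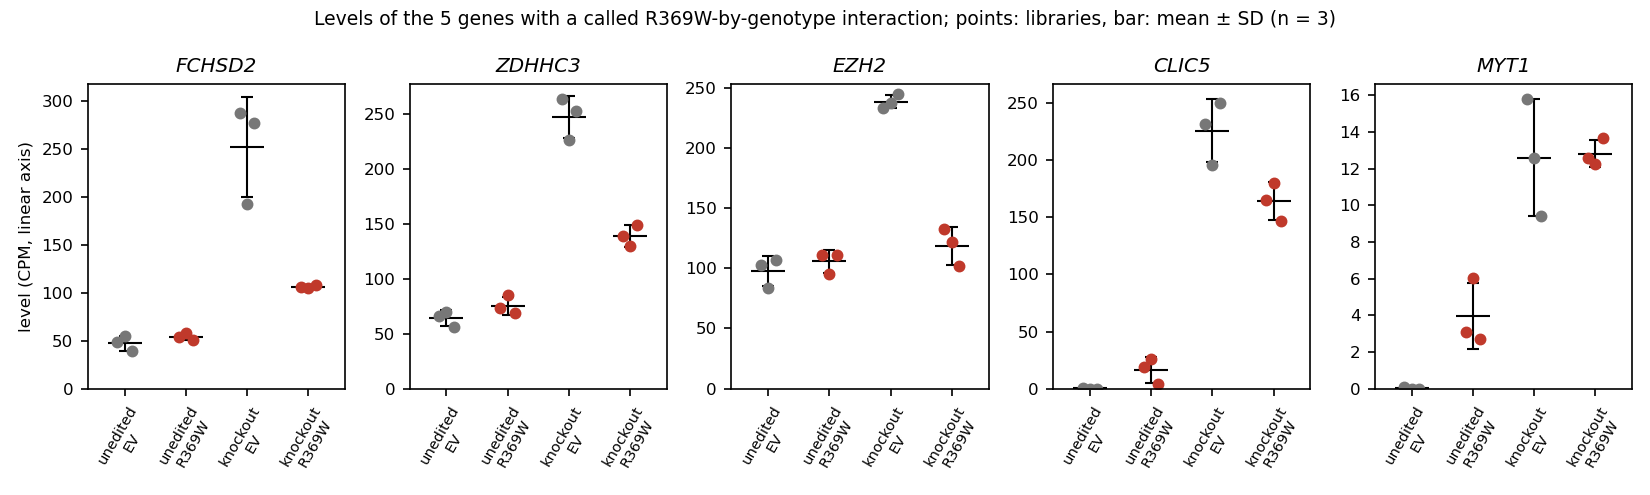
Levels (CPM, linear axes that differ between panels) of the 5 called genes in the 4 groups of the interaction; points are libraries, and bars are the mean and SD (n = 3). FCHSD2, ZDHHC3 and EZH2 are highest in knockout EV cells, while CLIC5 and MYT1 are near 0 in unedited EV cells and high in both knockout groups.

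The count of 5 changed with the libraries used and with the tool. Without knockout R369W replicate 2 no gene passed in edgeR (248 at an unadjusted p under 0.05), 1 passed when only the 12 libraries were fitted, and DESeq2 called 14. None of the alternatives run called a gene above 0.

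Of the called genes, 3 are overlapped on the opposite strand by a gene of the count table, and the sources used here do not give the strand setting of the counting. EXOSC7, an exosome subunit that overlaps ZDHHC3, had an interaction of -0.44 (SE 0.14, edgeR adjusted p = 1.0) and measured 70.3, 60.6 and 55.7 CPM in knockout EV against 45.7, 51.2 and 48.2 CPM in knockout R369W. That is the direction of ZDHHC3 with fewer reads. ATG16L2, which overlaps FCHSD2, had an interaction of 0.28 (adjusted p = 1.0) and between 21.3 and 36.7 CPM in all 12 libraries. NPBWR2, which overlaps MYT1, had no read in any of them.

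Wild-type ETV6 gave a reference for these genes. Its own interaction with genotype, (knockout ETV6 minus knockout EV) minus (unedited ETV6 minus unedited EV), was called in 3 genes (0.0245% of those tested), all below 0: FCHSD2, ZDHHC3 and EZH2. It shares all 6 EV libraries with the R369W interaction, so the calls common to both vectors are not independent. In knockout ETV6 libraries FCHSD2 measured 64.8, 60.3 and 60.4 CPM, below each of the 3 knockout R369W libraries. ZDHHC3 measured 98.8, 94.3 and 81.8 CPM and EZH2 86.5, 87.3 and 95.6 CPM there, again below every knockout R369W library. The ETV6 interaction was -1.79 for FCHSD2 (SE 0.19, edgeR adjusted p = 9.66e-04), -1.44 for ZDHHC3 (SE 0.16, adjusted p = 9.66e-04) and -1.42 for EZH2 (SE 0.18, adjusted p = 0.00417). For CLIC5, the unedited ETV6 libraries had no read and the knockout ETV6 libraries measured 0.906, 1.30 and 0.968 CPM. MYT1 likewise had no read in unedited ETV6 cells and 0.302, 0.153 and 0.0744 CPM in knockout ETV6 cells. The pair that knockout R369W cells kept high was thus near 0 in knockout cells given ETV6. No ETV6 interaction is read for these genes because a group had no reads.

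The difference between the vectors was tested as an interaction of its own, (knockout R369W minus knockout ETV6) minus (unedited R369W minus unedited ETV6). The EV libraries cancel in its size, but they enter the filter, the scaling and the spread of the fit. No gene was called (0% of those tested) by edgeR, DESeq2 or limma-voom. In edgeR, 124 genes (1.01%) had an unadjusted p under 0.05. This interaction was 0.36 for FCHSD2 (SE 0.19, 95% interval -0.05 to 0.77). It was 0.37 for ZDHHC3 (SE 0.16, interval 0.04 to 0.70) and 0.29 for EZH2 (SE 0.18, interval -0.09 to 0.68). The adjusted p was 1.0 for each in edgeR. All 3 values were above 0, the R369W interaction being the one nearer 0, and the intervals of FCHSD2 and EZH2 also hold no difference. For CLIC5 and MYT1 no size is read, because the unedited ETV6 libraries had no read. Their lack of a call does not show that the vectors act alike on them. The median half-width of the 95% interval of this interaction over all genes was 0.52.

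**Figure D3:**
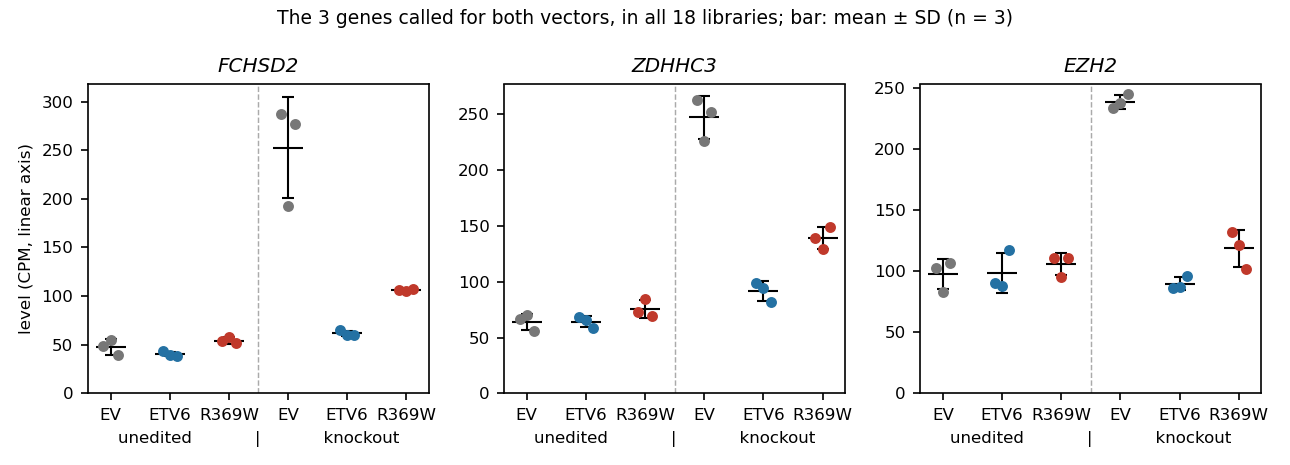
Levels (CPM, linear axis from 0) of FCHSD2, ZDHHC3 and EZH2 in all 18 libraries by genotype and vector; points are libraries, and bars are the mean and SD (n = 3). In knockout cells the order is EV, R369W, ETV6 from high to low in every panel with no overlap, while FCHSD2 in unedited cells stays between 38.8 and 57.8 CPM under all 3 vectors.

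ETV6 itself (ENSG00000139083; chromosome 12, 11649854 to 11895402, plus strand) did not have a called interaction. It measured 66.0, 77.8 and 145 CPM in unedited EV and 2053, 2829 and 2742 CPM in unedited R369W. In knockout cells it stood at 99.5, 39.1 and 117 CPM with EV and 2089, 1351 and 1636 CPM with R369W. In knockout R369W cells, replicates 2 and 4 lay below all 3 unedited ones. The interaction was -0.41 (SE 0.47, interval -1.41 to 0.60, edgeR adjusted p = 1.0), an interval that holds both no difference and a 2.66-fold lower ratio in knockout cells. Counts per gene pool the transcript of the vector with that of the cell, and they do not show the edit.

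Of 22 genes that an earlier account of these libraries had named for their response to the vectors or the knockout, edgeR called CLIC5 and MYT1, against 0.0408% of all genes tested, and 17 of 22 lay below 0, as did 53.7% of all genes tested. Their median was -1.0 against -0.02 for all genes, also with low genes set to a floor of 3 reads per group, and -0.86 over the 17 members with more than 3 reads in every group. These genes were chosen on the same libraries, so the count is a description. Of the 22, 10 had an unadjusted p under 0.05, all below 0, against 2.08% of all genes tested. LMTK3, a kinase, measured 0.151, 0.152 and 0.0615 CPM in unedited EV, 1.56, 2.61 and 0.233 CPM in unedited R369W, 58.2, 34.5 and 60.7 CPM in knockout EV, and 33.5, 64.3 and 31.4 CPM in knockout R369W. Its knockout groups overlapped. Its unedited EV libraries held 2, 2 and 1 reads (5 in all) and its lowest unedited R369W library 3, none above the floor. Its interaction of -3.79 (SE 0.91, edgeR adjusted p = 0.653) did not pass, and the few reads leave its size loose. BIRC7, an inhibitor of apoptosis, had 1 read in unedited EV, 101 in unedited R369W, 2177 in knockout EV and 1876 in knockout R369W (edgeR adjusted p = 0.180). NOVA2, a splicing factor, had 2, 60, 3793 and 2985 reads in the same order (edgeR adjusted p = 1.0). DESeq2 called LMTK3 (adjusted p = 0.0438), BIRC7 (0.00223) and NOVA2 (0.0354). BIRC7 and NOVA2 thus had reads with R369W in unedited cells, and in knockout cells their EV and R369W libraries overlapped.

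Other members of the list, with more reads in unedited EV cells, had values nearer 0. CD24, a surface glycoprotein of B-cell precursors that has close copies in the genome, had -0.99 (SE 0.40), TNFSF10, the death ligand TRAIL, -2.10 (SE 0.80) and ICAM1, an adhesion molecule, -1.09 (SE 0.47). CD33, a myeloid receptor, had -0.46 (SE 0.16) and GP6, the platelet collagen receptor, -1.02 (SE 0.50). None passed the adjustment in edgeR (adjusted p = 1.0 for each). CD33 measured 355, 349 and 278 CPM in unedited EV and 406, 419 and 452 CPM in unedited R369W, against 362, 372 and 335 CPM and 346, 285 and 380 CPM in knockout EV and R369W. Its unedited groups lay apart and its knockout groups overlapped. On the other side of 0, WNT7A, a secreted signalling protein, had 1.70 (SE 0.84, adjusted p = 1.0), with 8.01, 9.55 and 13.3 CPM in unedited EV, 4.27, 5.38 and 5.59 CPM in unedited R369W and under 1 CPM in every knockout EV and knockout R369W library.

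**Figure D4:**
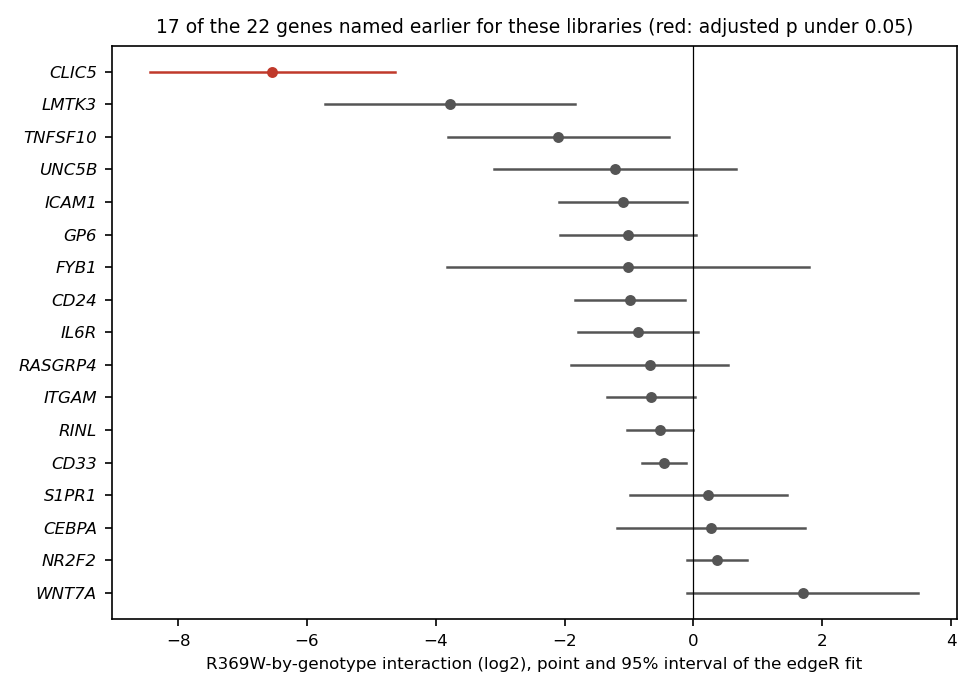
R369W-by-genotype interaction (horizontal axis, log2) with its 95% interval from edgeR for the 17 of 22 earlier named genes with more than 3 reads in each of the 4 groups. CLIC5, in red, passed an adjusted p under 0.05, and 13 of the 17 points lie below 0.

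PIK3CG, the catalytic subunit of phosphoinositide 3-kinase gamma, was the next gene below 0 and did not pass (-0.77, SE 0.15, edgeR adjusted p = 0.180). It measured 84.7, 91.3 and 69.3 CPM in unedited EV and 120, 122 and 114 CPM in unedited R369W. In knockout cells the values were 131, 125 and 129 CPM with EV and 113, 107 and 107 CPM with R369W. Both pairs of groups lay apart, in opposite orders as in CLIC5. DESeq2 called it (adjusted p = 0.00194).

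No gene above 0 passed. The 5 with the smallest unadjusted p were IRF2BP1, a co-repressor (0.68, SE 0.17, edgeR adjusted p = 0.887), and CHCHD6, a mitochondrial inner membrane protein (0.77), HGH1 (0.51), the ETS factor ETV2 (2.64) and UBALD1 (1.04), each with an adjusted p of 1.0. In all 5, knockout R369W replicate 2 was the highest of the 12 libraries. HGH1, for example, measured 64.0, 84.0 and 69.8 CPM in knockout R369W and 51.8 to 56.6 CPM in the other 9 libraries. IRF2BP1 measured 30.2, 41.1 and 30.1 CPM in knockout R369W, a range that overlapped unedited EV (29, 32.7 and 30.6 CPM).

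The other 20 lists were written from textbook knowledge of pathways and cell types, with earlier results of these data known. No member of these lists was called by edgeR in the main fit, while DESeq2 called BIRC7, CD79A and PIK3CG. The megakaryocyte and platelet list had a median of -0.04 over its 31 tested members, and the erythroid list 0.00 over 38. GFI1B, a transcriptional repressor at work in both lineages, had 0.40 (SE 0.15), and LAT, an adaptor of collagen receptor signalling, 0.32 (SE 0.15). MYB, a progenitor factor, lay below 0 (-0.42, SE 0.18). These 3 genes are named because their unadjusted p was under 0.05 in edgeR, as it was for 4.24% of all genes tested. They were GFI1B and LAT of the 31, and GFI1B and MYB of 17 megakaryocyte-erythroid factors (median 0.02). Of the 31, 17 lay below 0, down to -1.02. GFI1B, LAT and MYB each had an adjusted p of 1.0 in edgeR. The 21 tested ETS factors had a median of -0.13. GABPA lay below 0 (-0.48, SE 0.16), and ERF above it (0.59, SE 0.25) together with ETV2, and none passed.

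Among lists of metabolism, stress and growth, 3 of 25 cholesterol synthesis genes lay below 0, against 53.7% of all genes tested. In the heat shock list 4 of 23 did, and in the MYC list 6 of 30. The cell cycle list had 14 of 33 below 0 and the unfolded protein response list 13 of 21. Whether such shifts exceed those of other genes was not tested. All these lists had medians between the quartiles of all genes (-0.18 and 0.16), except cholesterol synthesis, which lay above the third. Their medians were 0.17 for 25 cholesterol synthesis genes, 0.15 for 23 heat shock and immediate-early genes, 0.15 for 30 genes of MYC and ribosome biogenesis, 0.03 for 33 cell cycle genes and -0.08 for 21 genes of the unfolded protein response. The 41 interferon genes had a median of -0.13, the 22 MHC class I genes -0.02, the 27 TNF and NF-kB genes -0.16, the 21 apoptosis genes -0.04, the 34 small GTPase and actin genes -0.08 and the 21 immunoreceptor signalling genes -0.04. The 34 GTPase genes ranged from -0.68 to 1.04, and VAV1, a GTPase activator of blood cells, had -0.63 (SE 0.29, edgeR adjusted p = 1.0).

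Markers of other blood cells were read as a check on the identity of the libraries. Of 18 B-lymphoid genes, 6 were tested and 7 had no read in the 12 libraries. CD79A, IL7R, RAG2 and CD24 had an unadjusted p under 0.05 below 0, as did 2.08% of all genes tested, and none passed in edgeR. The median of the 6 was -2.19, or -1.50 with PAX5 at the floor. CD79A, a subunit of the B-cell receptor, had 0.227, 0.227 and 0.431 CPM in unedited EV and 0.410, 0.0792 and 0.621 CPM in unedited R369W. It measured 15.5, 10.4 and 9.42 CPM in knockout EV and 1.08, 0.843 and 1.41 CPM in knockout R369W. Its group means were ordered as those of FCHSD2 (interaction -3.70, SE 0.83, edgeR adjusted p = 0.513), and DESeq2 called it. The unedited groups held only 13 reads with EV and 14 with R369W, which leaves their order and the size of the interaction loose. RAG2, a recombinase subunit, measured 0.529, 0.910 and 0.308 CPM in unedited EV and 3.28, 2.93 and 2.09 CPM in unedited R369W. As in MYT1, these groups lay apart, while the knockout groups overlapped at 10.3, 7.39 and 6.74 CPM in knockout EV and 8.78, 6.66 and 13.4 CPM in knockout R369W. The summed level of the list, mostly CD24, was 138 to 333 CPM in unedited EV, 318 to 579 CPM in unedited R369W, 628 to 694 CPM in knockout EV and 521 to 692 CPM in knockout R369W.

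The 19 tested myeloid genes (of 35) had a median of -0.38, -0.24 with low genes at the floor and -0.098 over the 17 with more than 3 reads in every group, and 3 of the 35 had no read. The summed levels of the list were 1048 to 1333, 1426 to 1596, 1090.0 to 1322 and 1044 to 1366 CPM in the same order of groups, so unedited EV and R369W did not overlap. FCER1G, an Fc receptor subunit, had -1.26 (SE 0.40, edgeR adjusted p = 1.0). The summed mast cell and basophil list (14 tested, median -0.16) was 1495 to 1977, 1482 to 2283, 1793 to 2414 and 2071 to 2522 CPM. The endothelial list (10 tested, median 0.20) was 497 to 734, 505 to 788, 376 to 654 and 438 to 835 CPM. Of 18 T and NK genes, 2 were tested (median -0.25) and 3 had no read, with summed levels of 92.1 to 112, 106 to 140, 143 to 243 and 136 to 254 CPM. The erythroid list summed to 7002 to 11771, 7137 to 11527, 4092 to 7341 and 4437 to 6975 CPM. The summed levels of the last 4 lists overlapped between EV and R369W in both genotypes, and the part of other cell types in the interaction was not tested.

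**Figure D5:**
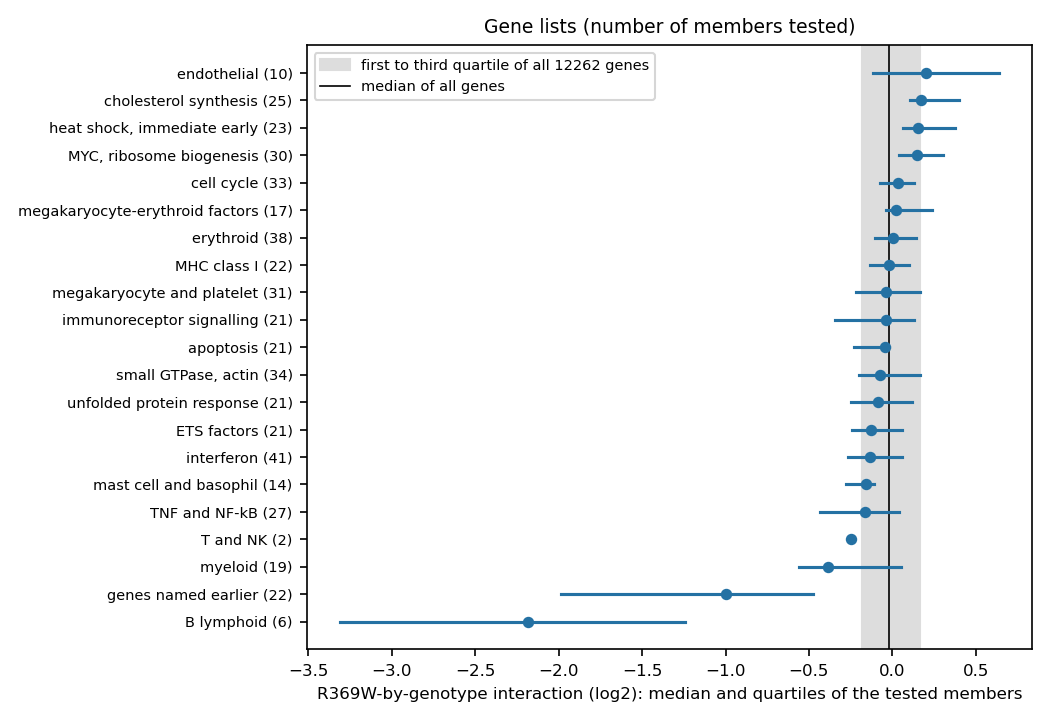
Median (point) and quartiles (line) of the R369W-by-genotype interaction (log2) over the tested members of each of the 21 gene lists, with the number tested in brackets; the grey band runs from the first to the third quartile of all 12262 genes. Most medians lie in the band. Those of the B-lymphoid list, the genes named earlier, the myeloid list and the T and NK list lie below it. Those of the endothelial and cholesterol synthesis lists lie above it.

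The precision of an interaction, which carries the error of 4 groups, limits what could be called. The median SE was 0.24 over all genes, 0.18 for the 6077 genes above a mean log2 CPM of 5 and 0.96 for the 1313 genes below 1. The median half-width of the 95% interval was 0.52.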

How the data were processed

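The authors deposited a table of raw counts, whole reads per gene, with 1 library per column; 5 entries that name no gene were dropped (34.4% to 41.6% of the listed reads in the 12 libraries). Per the submitters' processing notes, HISAT2, SAMtools and HTSeq were used with the GRCh38 build. The sources used here do not give versions, the annotation or the strand setting. Per the labels' protocols, libraries followed a stranded mRNA kit. A second file, listing libraries, was not used. Of 20833 identifiers, 20801 took a symbol from a gene name table and 31 from GENCODE release 29.

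Genes were kept by edgeR's filterByExpr on the group and scaled by TMM, and 1 mean per group was fitted over all 18 libraries (edgeR 4.0.16 in R 4.3.3, quasi-likelihood, two-sided, Benjamini-Hochberg, threshold 0.05). No replicate block was used. SE was taken from the size and F of the test, and 95% intervals use the residual plus prior degrees of freedom. With 3 libraries per group, single values were tested in the model only. The fit was tested on simulated data. Alternatives were DESeq2, limma-voom, other scaling, filters and prior counts, the 12 libraries alone, a replicate block, and each library left out; a group left with 2 libraries borrows the spread of the others.

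Named genes are ETV6, up to 12 called genes per direction by size with more than 3 reads in each group and a mean log2 CPM of at least 0, the smallest unadjusted p filling each direction to 5, up to 5 called genes with a lower group, and called list members; other named genes were chosen after their values were seen. The question, lists and members were chosen with earlier results of these data known. The 95% intervals carry the spread between libraries, while floors cover counting error only, since reads carry no molecular identifiers. A marker gene is not reported here.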

Additional observations from a re-analysis of the deposited data

Results flagged for a closer look

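The R369W-by-genotype interaction was called in 5 genes in the main fit, which are therefore given again with their size. With 1 library left out, EZH2 held in 1 of 12 fits, CLIC5 in 4, ZDHHC3 in 5, FCHSD2 in 9 and MYT1 in 11. None held without knockout R369W replicate 2. The log2 interaction was -6.54 for CLIC5, -1.43 for FCHSD2, -1.12 for EZH2 and -1.07 for ZDHHC3. MYT1 is listed by its adjusted p of 0.0108 in edgeR because its unedited EV libraries held 1 read in all.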

How the results depend on the processing

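The count of 5 called interactions was 5 with DESeq2's size factors in edgeR, without a filter and with a robust prior, and 4 with limma-voom, which lost CLIC5. It was 2 with a filter of 1 CPM in each of the 4 groups (FCHSD2 and ZDHHC3), 14 with DESeq2 and 1 with only the 12 libraries (MYT1). That filter removed CLIC5 and MYT1 before the test, and EZH2 had an edgeR adjusted p of 0.0507 under it. With 1 library left out the count ran from 0 (without knockout R369W replicate 2) to 6 (without unedited R369W replicate 4 or knockout R369W replicate 1). DESeq2 kept the 5 genes and added ACAP2, BIRC7, CD79A, CDC42SE2, DYNC2H1, LMTK3, MIB1, NOVA2 and PIK3CG. Every call under every alternative run was below 0. With the replicate number as a block nested in genotype, 6 genes passed over 18 libraries (the 5 and PIK3CG) and 1 over the 12 libraries (CLIC5). In these 2 fits 1120 and 711 genes had an unadjusted p under 0.05, against 520 in the main fit. The numbers did not pair the knockout R369W libraries, so the values with a block are given here only. The R369W-against-ETV6 interaction stayed at 0 calls under all 21 alternatives. Signs turned in genes that were never called: SHISAL1 was -0.11 with limma-voom, -0.31 with a prior count of 2, -9.23 CPM on the linear scale and -0.52 to 1.81 with a library left out; CEBPA was -0.062 with limma-voom and -0.58 to 0.73 with a library left out; S1PR1 ran from -0.21 to 0.56 with a library left out; and UNC5B was 2.24 CPM on the linear scale. Apart from the filter, the cause of these changes was not tested. Depth limits genes near 0 CPM in a group, whose sizes depend on the prior count.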

Other observations

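The genes SLFN11, FYB1, NOVA2 and SHISAL1, high in knockout cells only and picked after their values were seen, differed widely between libraries of 1 group. SLFN11, which blocks stressed replication forks, measured 70.6, 7.84 and 86.8 CPM in knockout EV replicates 1, 2 and 4 and 7.01, 71.2 and 65.2 CPM in knockout R369W. FYB1, an adaptor of immune cells and platelets, measured 186, 46.8 and 193 CPM and 33.7, 122 and 126 CPM in the same libraries. NOVA2 (111, 38.8 and 88.3 CPM, then 36.9, 93.9 and 95 CPM) and SHISAL1 (38.5, 10.7 and 42.0 CPM, then 9.70, 28.3 and 25.4 CPM) had their lowest knockout libraries at the same places, EV replicate 2 and R369W replicate 1. Across genes, these 2 libraries also deviated from their group means together (r = 0.872). The SE of the FYB1 interaction (-1.01) was accordingly 1.32 in the main fit, which uses no pairing of libraries. No direction can be read for FYB1 from that fit.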
